A study of Mus musculus with 24 samples.

Results

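The genes of the endoplasmic reticulum (ER) folding and degradation machinery were followed in mouse embryonic cortical neurons with and without the transcription factor ATF4. The group held 36 genes: the major chaperones, their J-domain partners, the lectin chaperones, disulfide and prolyl isomerases, the degradation machinery, the translocation channel, and the sensors of unfolded protein with their factors. Members were all probes that the array annotation names with one of these gene symbols or a synonym, and 32 of the 36 genes had such a probe, 40 probes in all of the 24048 on the array. The array named 15946 genes. No named probe was found here for Dnajb11, Sdf2l1, Ero1a or Atf6, which are not analysed here.

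Total RNA of 24 samples, 1 per array, was hybridised to Illumina Mouse Ref-8 arrays on 3 chips of 8. The 4 groups compared were Atf4 knockout (KO) neurons exposed to homocysteate (HCA), wild-type (WT) neurons exposed to HCA, untreated KO neurons and untreated WT neurons. HCA is a homolog of glutamate, used here to cause oxidative stress. Chip 1 carried 4 untreated KO and 4 untreated WT samples, and chips 2 and 3 together carried 4 samples of each of the 4 groups. Neither the HCA dose and time, nor the age of the embryos, nor the Atf4 allele is given in the sources used here. They also do not say whether replicates came from separate cultures or animals, so every p-value below measures only the spread between these samples, which may be technical.

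Proteins that enter the ER are threaded through the SEC61 channel, bound by chaperones such as BiP (Hspa5) and GRP94 (Hsp90b1), given disulfide bonds by the PDI family, and, if they do not fold, drawn back out and degraded through the SEL1L and HRD1 complex. When unfolded protein builds up, the sensors IRE1 (Ern1), ATF6 and PERK raise the output of these genes: IRE1 splices the Xbp1 messenger, ATF6 is cut to a transcription factor, and PERK leads to translation of ATF4. ATF4 is best known for genes of amino acid supply and oxidative stress, and Herpud1, a membrane component of the degradation complex, is a known gene of both the ATF6 and the ATF4 branch.

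The letters through which these branches are known to act can be read in the promoters. RefSeq promoters of build GRCm38.p6, from 250 bases before to 50 after the start site, were given for 32 of the 36 genes (none for Atf6, Derl1, Hyou1 and Manf), 36 promoters in all, and were searched on both strands. The ER stress element, CCAAT then 9 bases then CCACG, was found in 9 of the 32 genes (28.1%), against 37 of 27025 genes with a promoter (0.137%). These 9 were Calr, Canx, Creld2, Dnajc3, Ero1b, Hsp90b1, Hspa5, Pdia6 and Syvn1. The second form of the element, ATTGG then 1 base then CCACG, was found in Dnajb11 and Herpud1 (6.25%, against 0.0444% of all genes). The XBP1 core GCCACGT was found in 7 members (21.9%, against 2.95% of all genes). The C/EBP-ATF element, TGATG then 1 base then AA, which ATF4 binds with a C/EBP partner, was found in 1 member, Herpud1 (3.12%, against 4.51% of all genes). A match in these letters is a description and not a site of binding. The 250 bases before the start site are shown for 4 genes that later differed between the genotypes and for Syvn1, which carried the element and did not pass the test. They read 5' to 3' on the gene's strand, with matches to any of the 4 motifs in capitals.
Hspa5 (chr2:34771840-34772089, + strand): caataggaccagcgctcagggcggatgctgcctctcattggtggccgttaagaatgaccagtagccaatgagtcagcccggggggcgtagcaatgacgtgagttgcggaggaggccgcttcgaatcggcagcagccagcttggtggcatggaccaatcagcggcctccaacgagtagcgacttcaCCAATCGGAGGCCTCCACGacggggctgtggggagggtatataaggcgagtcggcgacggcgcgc
Hsp90b1 (chr10:86705445-86705694, - strand): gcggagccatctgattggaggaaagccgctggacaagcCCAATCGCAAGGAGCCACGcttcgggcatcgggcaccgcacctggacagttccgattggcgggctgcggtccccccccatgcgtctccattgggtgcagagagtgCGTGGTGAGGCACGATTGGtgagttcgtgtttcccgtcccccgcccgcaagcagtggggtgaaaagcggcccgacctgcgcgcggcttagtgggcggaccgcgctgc
Herpud1 (chr8:94386179-94386428, + strand): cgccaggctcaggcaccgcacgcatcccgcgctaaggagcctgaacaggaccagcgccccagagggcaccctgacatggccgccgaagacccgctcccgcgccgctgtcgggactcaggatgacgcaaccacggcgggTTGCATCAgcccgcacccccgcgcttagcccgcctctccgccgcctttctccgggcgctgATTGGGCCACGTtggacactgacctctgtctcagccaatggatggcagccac
Creld2 (chr15:88819396-88819645, + strand): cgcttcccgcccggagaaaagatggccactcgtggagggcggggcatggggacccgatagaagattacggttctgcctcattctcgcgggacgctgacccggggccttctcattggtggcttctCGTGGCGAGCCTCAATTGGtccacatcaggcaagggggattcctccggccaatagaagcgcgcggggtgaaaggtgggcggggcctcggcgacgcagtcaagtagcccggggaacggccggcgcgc
Syvn1 (chr19:6046326-6046575, + strand): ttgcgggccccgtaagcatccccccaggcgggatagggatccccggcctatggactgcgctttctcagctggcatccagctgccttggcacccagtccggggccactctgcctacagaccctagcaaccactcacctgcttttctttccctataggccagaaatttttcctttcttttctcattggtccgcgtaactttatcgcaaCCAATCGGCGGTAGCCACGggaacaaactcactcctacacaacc
Hsp90b1 held the ER stress element in both orientations, its first bases 212 and 107 bases before the start site. In Hspa5 the element began 65 bases before it, in Creld2 126 and in Syvn1 44. Herpud1 held the C/EBP-ATF element from 112 bases before the start site, and from 52 bases before it the second form of the ER stress element, which overlaps the XBP1 core.

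The arrays were read at a mean signal of 745 to 983 on chip 1, 342 to 537 on chip 2 and 296 to 669 on chip 3, and between 36.6% and 47.9% of probes were detected per array (detection p under 0.05). The number of arrays limits the precision. The Atf4 probe was detected on none of the KO arrays and on all WT arrays, and was at least 18.8-fold lower in KO neurons on chip 1, at least 13.6-fold lower in untreated and at least 19.0-fold lower in HCA-treated KO neurons on chips 2 and 3. The neuronal markers Tubb3 and Map2 were detected on all 24 arrays, while no probe of the markers Snap25 and Nefl was. The Y-linked transcript Eif2s3y was not balanced: on chips 2 and 3 it was detected on 4 of 4 KO and 2 of 4 WT arrays in either treatment, and on chip 1 on 0 of 4 KO and 2 of 4 WT arrays.

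Of the 40 member probes, 10 were detected on no array, those of Calr, Canx, Derl1, Dnajc10, Edem1, Edem3 and Ssr1 and 1 probe of Derl2. Canx (calnexin, a lectin chaperone) lay between 4.63 and 5.18 on the log2 intensity scale on every array, at the level of background. Ern1, the IRE1 sensor, was detected on 1 array (5.16 to 5.80), Dnajc3, a J-domain partner of BiP, on 2 (5.12 to 6.19), Manf, an ER-resident neurotrophic factor, on 1 and the third probe of Edem2 on 2. The comparisons cover the probes detected on at least 4 arrays of a fit: 24 probes of 22 genes on chips 2 and 3, and 26 probes of 22 genes on chip 1.

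In untreated neurons on chips 2 and 3, ER folding genes were lower without ATF4. Of the 24 member probes, 17 (of 16 genes) fell in KO neurons, none rose, and the differences ranged from -1.03 to -0.04 on the log2 scale. All 24 differences lay below 0, with a median of -0.62, where the median of all probes tested was 0.03. In 15 probes every KO array lay below every WT array. In limma, at an adjusted p under 0.05 over all 10547 probes tested, 10.7% of all probes were called lower and 10.2% higher, and 11% of all probes had every KO array below every WT array. The size of this result and the number of calls depended on the scaling. With each array centred on its median in place of quantile normalisation, 20 of the 24 differences lay below 0 with a median of -0.42 and 1 probe was called lower, Hsp90b1 at -0.85, while the median of all probes tested moved to 0.14. Edem2, Os9, Ppib and Syvn1 then lay above 0, none of them called. The median of an array was taken over all 24048 probes, of which 36.6% to 47.9% were detected per array. Median centring also gave larger SEs for the member probes whose SE is given below, such as 0.23 for Creld2. With the detection of Eif2s3y as a covariate, 16 member probes fell. Its detection did not vary between the KO arrays of any chip. In every fit with this covariate only the WT arrays inform it, which is a weak check.

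Among the major chaperones, all 3 probes tested fell. Hsp90b1, the ER member of the HSP90 family, had log2 intensities of 10.30, 10.23, 10.09 and 9.95 in untreated KO neurons, against 11.11, 11.37, 11.09 and 11.10 in untreated WT neurons. The groups did not overlap, and the difference was -1.03 ± 0.11 (SE, n = 4 each, limma adjusted p = 1.25e-05), a 2.04-fold lower intensity. Hspa5 (BiP), the ER member of the HSP70 family and the chaperone that holds the sensors inactive, had 6.82, 6.40, 5.89 and 5.67 in KO neurons, against 7.27, 7.25, 6.87 and 6.28 in WT neurons. These ranges overlapped, the chip 3 arrays were the low ones in both genotypes, and 2 of the 4 KO arrays did not detect the probe. Its difference was -0.72 ± 0.18 (SE, adjusted p = 0.0101), and without the chip term it was still -0.72 and no longer called (adjusted p = 0.193). Hyou1, a nucleotide exchange factor of BiP, differed by -0.65 ± 0.18 (SE, adjusted p = 0.0194).

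Every disulfide gene that could be tested fell, 7 of 7 probes, with a median of -0.64. Pdia3 (ERp57), the isomerase that works with calnexin and calreticulin on glycoproteins, had 10.91, 10.98, 11.09 and 10.94 in untreated KO neurons, against 11.73, 11.95, 11.86 and 11.85 in untreated WT neurons. Pdia4 (ERp72) had 8.87, 9.12, 9.33 and 9.04 in KO neurons, against 9.89, 9.97, 9.96 and 10.09 in WT neurons. All KO arrays lay below all WT arrays for both, with differences of -0.87 ± 0.09 (SE, adjusted p = 8.78e-06) for Pdia3 and -0.89 ± 0.09 (SE, adjusted p = 1.43e-05) for Pdia4. Creld2, a secreted ER stress protein, had 8.70, 8.95, 9.11 and 8.74 in KO neurons, against 9.35, 9.55, 9.51 and 9.65 in WT neurons, without overlap. The difference was -0.64 ± 0.10 (SE, adjusted p = 0.000555). P4hb, the founding disulfide isomerase, Pdia5, Pdia6 and the oxidase Ero1b, which recharges the isomerases, fell by 0.42, 0.54, 0.53 and 0.67 on the log2 scale. Of these 4, Ero1b had the largest adjusted p, 0.0315, and 2 of its 4 KO arrays did not detect it. The second probe of Pdia5 was not tested on these chips.

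Sec61b and Xbp1 fell as well. Sec61b, a subunit of the translocation channel, was read by 2 probes. The first had 9.10, 9.34, 9.22 and 9.36 in untreated KO neurons, against 10.00, 10.06, 10.32 and 10.29 in untreated WT neurons. The second had 9.00, 9.07, 8.65 and 8.87 in KO neurons, against 9.70, 9.92, 9.68 and 9.65 in WT neurons. Neither overlapped, and the differences of -0.91 ± 0.10 (SE, adjusted p = 2.5e-05) and -0.84 ± 0.08 (SE, adjusted p = 1.06e-05) were close to each other. Xbp1, the transcription factor whose messenger IRE1 splices, had 10.78, 10.99, 11.10 and 11.04 in KO neurons, against 11.82, 11.72, 11.96 and 11.83 in WT neurons. Its difference of -0.85 ± 0.08 (SE, adjusted p = 6.49e-06) had the smallest adjusted p of all member probes in this comparison. Which spliced form the probe reads was not examined.

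The degradation machinery was divided. Of its 7 probes tested, 2 fell, with a median of -0.27. Herpud1 had 7.28, 7.49, 7.67 and 7.71 in untreated KO neurons, against 8.38, 8.39, 8.39 and 8.24 in untreated WT neurons, without overlap. The difference was -0.81 ± 0.11 (SE, adjusted p = 0.000172). Sel1l, the adaptor of the HRD1 ligase, had 8.03, 8.16, 8.41 and 8.25 in KO neurons, against 8.78, 8.72, 8.70 and 8.75 in WT neurons, again without overlap. It differed by -0.52 ± 0.09 (SE, adjusted p = 0.000819). Syvn1, which encodes the HRD1 ligase itself, differed by -0.16 (adjusted p = 0.151), the lectin Os9 by -0.12 (adjusted p = 0.263), the mannosidase relative Edem2 by -0.04 (adjusted p = 0.725), and the 2 tested probes of the derlin Derl2 by -0.47 (adjusted p = 0.0764) and -0.27 (adjusted p = 0.397). None of these 5 probes passed the test.

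The prolyl isomerases Fkbp11 and Fkbp2 fell, by 0.77 (adjusted p = 0.00455) and 0.59 (adjusted p = 0.000181) on the log2 scale, with Fkbp11 detected on 3 of 4 KO and 4 of 4 WT arrays. Ppib (cyclophilin B), the third, had 11.00, 11.09, 10.98 and 11.05 in untreated KO neurons, against 11.25, 11.09, 11.12 and 11.15 in untreated WT neurons. All KO arrays lay below all WT arrays, by little, and the difference of -0.12 ± 0.06 (SE, adjusted p = 0.202) did not pass. Dnajb9, the one J-domain partner tested, differed by -0.24 (adjusted p = 0.398). Of the 16 genes called, 15 had a promoter: 6 carried an ER stress element of either form (Creld2, Ero1b, Herpud1, Hsp90b1, Hspa5 and Pdia6) and 4 the XBP1 core. Of the 6 genes tested and not called, Syvn1 carried the element, and Os9 and Ppib the core.

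**Figure D1:**
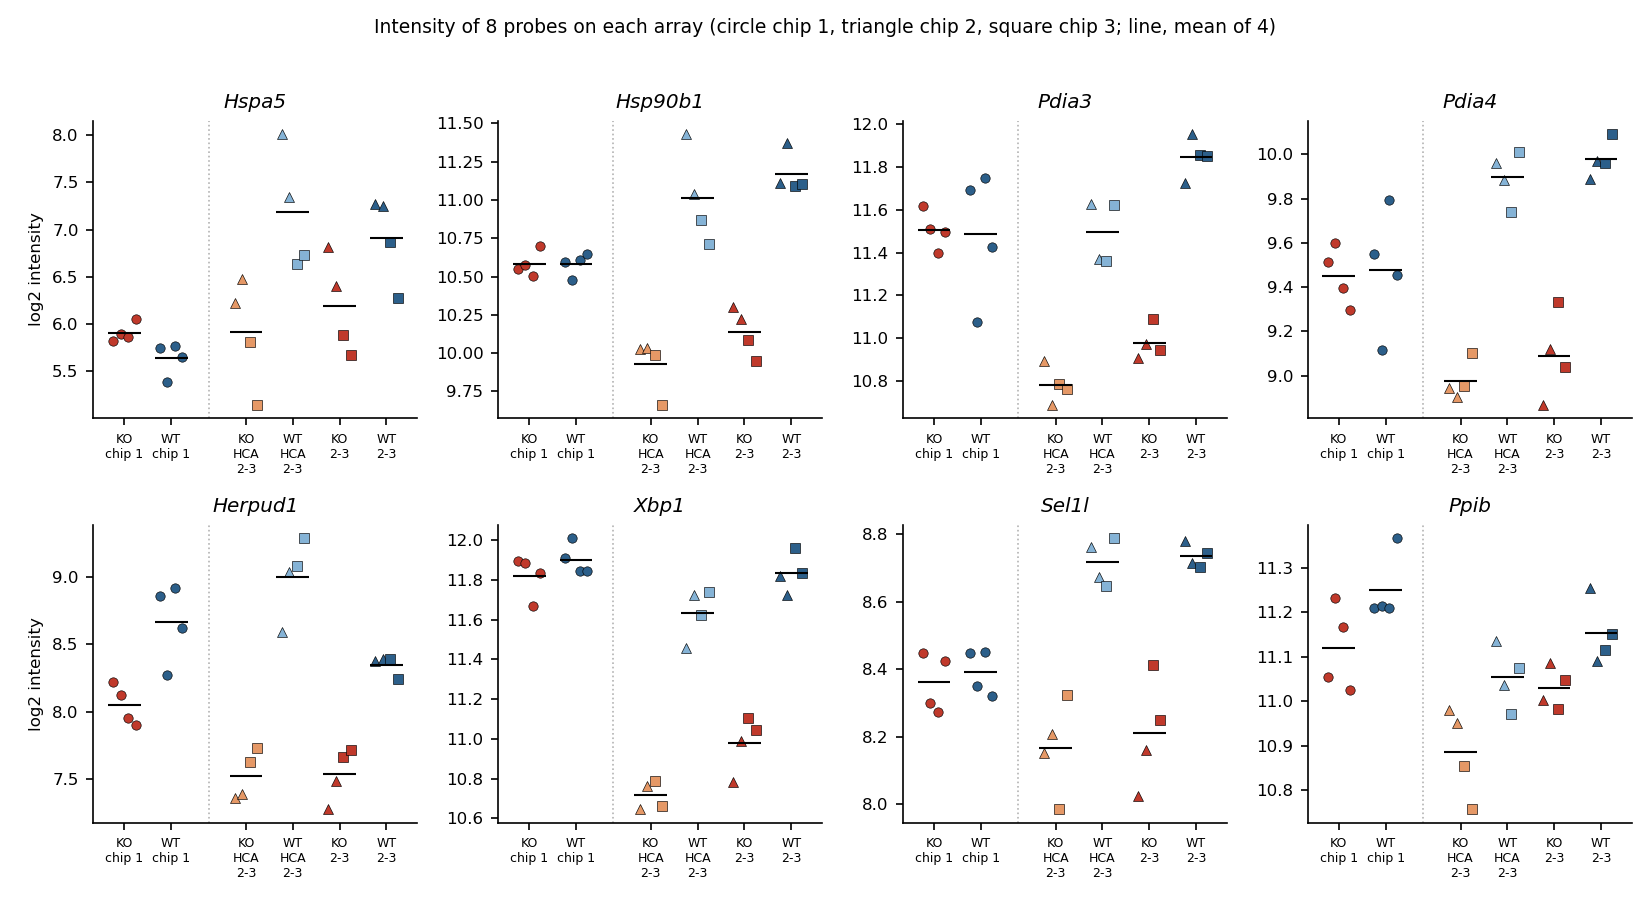
Log2 intensity (y axis) of 8 member probes on each array, by genotype, treatment and chip: circles are chip 1, triangles chip 2, squares chip 3, and each line is the mean of 4 arrays. On chips 2 and 3 all KO arrays of Hsp90b1, Pdia3, Pdia4, Herpud1, Xbp1 and Sel1l lie below all WT arrays in either treatment, and on chip 1 the genotypes overlap for Hsp90b1, Pdia3, Pdia4, Xbp1 and Sel1l.

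In HCA-treated neurons ER folding genes were again lower without ATF4. Of the 24 member probes, 15 (of 14 genes) fell in KO neurons against a background of 11% of all probes called lower. None rose, where 1156 of all 10547 probes were called higher. All 14 genes were among the 16 that fell in untreated neurons. The median was -0.41 (0.04 for all probes tested) and 23 of 24 differences lay below 0. In 13 probes every KO array lay below every WT array, as in 10.6% of all probes. With median centring, 23 differences lay below 0, the median was -0.46 and 8 probes were called lower, those of Herpud1, Hsp90b1, Hspa5, Pdia3, Pdia4, Sec61b (both) and Xbp1. With the detection of Eif2s3y as a covariate, 14 fell.

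Herpud1 had the largest difference of the members here. It had 7.36, 7.39, 7.63 and 7.73 in HCA-treated KO neurons, against 8.59, 9.04, 9.08 and 9.28 in HCA-treated WT neurons. No KO array reached a WT array, and the difference was -1.47 ± 0.11 (SE, n = 4 each, limma adjusted p = 7.96e-07), a 2.77-fold lower intensity. Hspa5 had 6.23, 6.47, 5.81 and 5.14 in HCA-treated KO neurons, the last 2 not detected, against 8.01, 7.35, 6.64 and 6.73 in HCA-treated WT neurons. The groups did not overlap, and the difference was -1.27 ± 0.18 (SE, adjusted p = 0.00017). Hsp90b1 had 10.03, 10.03, 9.99 and 9.66 in KO neurons, against 11.43, 11.04, 10.87 and 10.71 in WT neurons, a difference of -1.09 ± 0.11 (SE, adjusted p = 6.96e-06). These 3 genes carry an ER stress element in the promoters printed above, as do Creld2 and Syvn1. None of the motifs searched was found for Xbp1, Pdia4, Pdia3, Sel1l or Sec61b, whose differences are given below. A link between the motifs and the differences was not tested.

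Xbp1 had 10.65, 10.76, 10.79 and 10.66 in HCA-treated KO neurons, against 11.46, 11.72, 11.62 and 11.74 in HCA-treated WT neurons, and differed by -0.92 ± 0.08 (SE, adjusted p = 2.7e-06). Pdia4 had 8.94, 8.90, 8.95 and 9.10 in KO neurons, against 9.96, 9.88, 9.74 and 10.01 in WT neurons, and differed by -0.92 ± 0.09 (SE, adjusted p = 9.17e-06). Pdia3 had 10.90, 10.69, 10.79 and 10.76 in KO neurons, against 11.63, 11.37, 11.36 and 11.62 in WT neurons, and differed by -0.71 ± 0.09 (SE, adjusted p = 4.68e-05). The genotypes did not overlap for any of the 3.

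Sel1l had 8.15, 8.21, 7.99 and 8.32 in HCA-treated KO neurons, against 8.76, 8.68, 8.65 and 8.79 in HCA-treated WT neurons, a difference of -0.55 ± 0.09 (SE, adjusted p = 0.000503). The Sec61b probes differed by -0.72 and -0.67, and Fkbp11, Ero1b, Pdia6, Fkbp2, Creld2 and P4hb fell by 0.65, 0.63, 0.42, 0.40, 0.37 and 0.28 on the log2 scale. Fkbp11 and Ero1b were each detected on 1 of 4 KO and 4 of 4 WT arrays, and their other KO values were not told apart from background. Of these 6, Pdia6 (adjusted p = 0.048) and Ero1b (adjusted p = 0.0409) lay closest to the threshold. Creld2 was lost without KO HCA replicate 2, WT HCA replicate 2 or WT HCA replicate 3. Hyou1 (-0.02, adjusted p = 0.953) and Pdia5 (-0.21, adjusted p = 0.203) were called in untreated neurons and not here. That change was tested as the difference of the HCA responses, in which neither gene was called. Dnajb9 was the one probe above 0, at 0.35 (adjusted p = 0.189). Ppib had 10.98, 10.95, 10.85 and 10.76 in KO neurons, against 11.13, 11.04, 10.97 and 11.07 in WT neurons (-0.17, adjusted p = 0.078). Syvn1, Os9, Edem2 and Derl2 did not pass in this comparison either, with differences between -0.28 and -0.06.

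**Figure D2:**
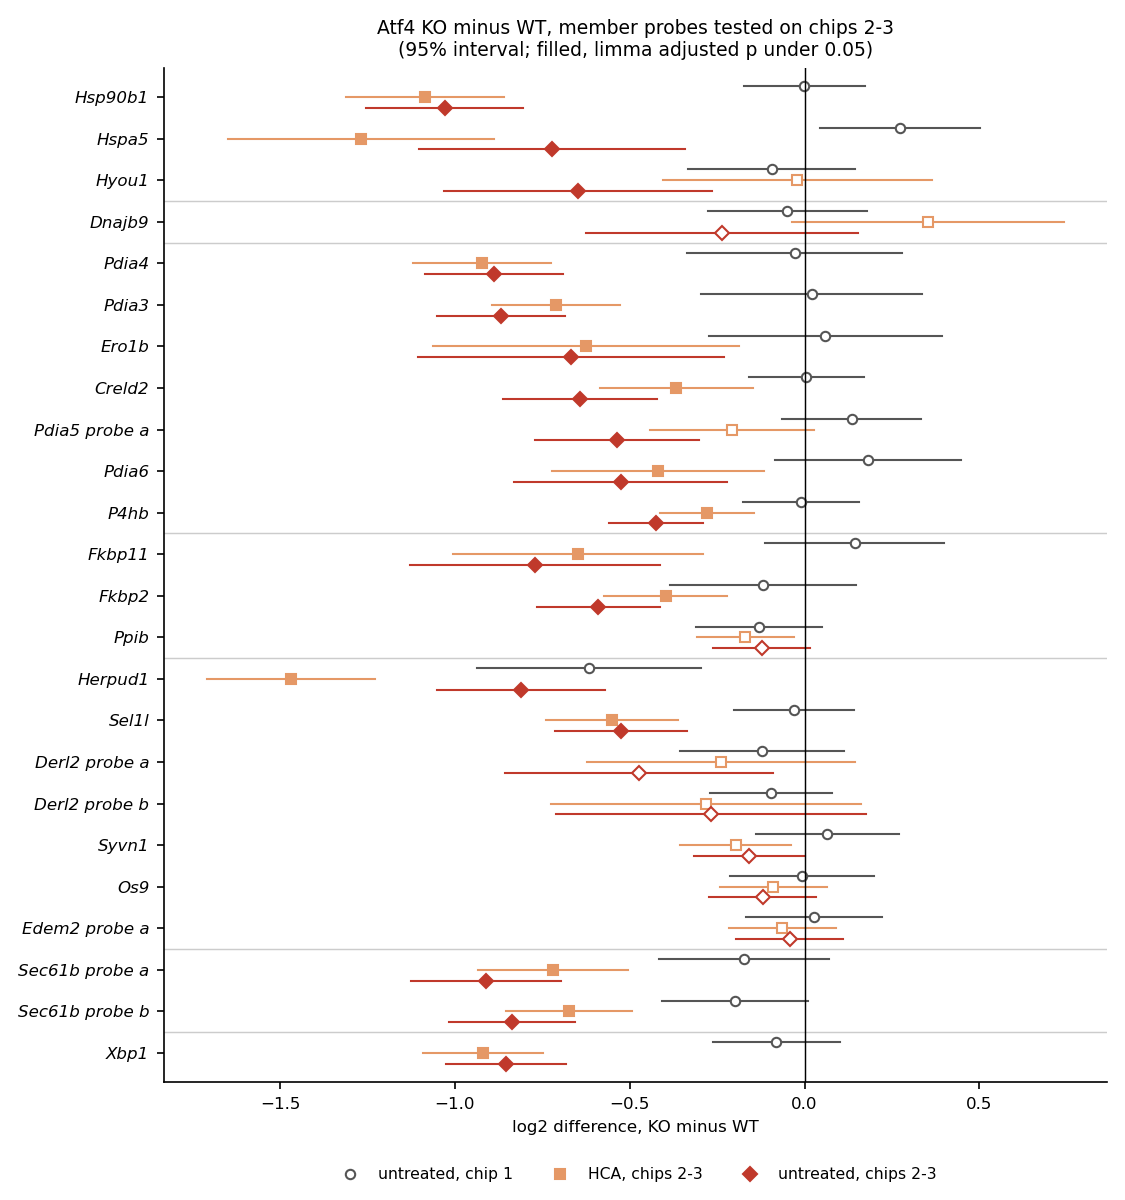
KO minus WT difference in log2 intensity (x axis) with its 95% interval for the 24 member probes tested on chips 2 and 3, grouped by role: grey circles are untreated arrays of chip 1, orange squares HCA-treated and red diamonds untreated arrays of chips 2 and 3, filled where the limma adjusted p was under 0.05. The red and orange marks lie mostly left of 0 and the grey ones around it, except for Herpud1, whose 3 marks lie at -0.62, -1.47 and -0.81. With median centring Edem2, Os9, Ppib and Syvn1 turn to the right of 0 in untreated neurons of chips 2 and 3.

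Few of these genes were called between HCA-treated and untreated neurons. In WT neurons, 1 of 24 member probes rose, Herpud1, against 0.872% of all probes, and 1 fell, Creld2, against 0.882%. The median of the members was -0.23 (0.00 for all probes) and 21 of 24 lay below 0. At an unadjusted p under 0.05, which 1540 of all 10547 probes met in either direction, 11 member probes were lower and 1 was higher. In 6 every HCA array lay below every untreated array, as in 4.26% of all probes, and in 1 every HCA array lay above (3.22%). Herpud1 differed by 0.65 ± 0.11 (SE, n = 4 each, limma adjusted p = 0.00981) between the WT values given above, 8.59 to 9.28 with HCA and 8.24 to 8.39 without. Creld2 had 8.83, 9.19, 9.21 and 9.05 in HCA-treated WT neurons, against 9.35, 9.55, 9.51 and 9.65 in untreated WT neurons, without overlap. Its difference of -0.45 ± 0.10 (SE, adjusted p = 0.0425) was lost when any of 12 of the 16 arrays was left out (adjusted p between 0.0529 and 0.133). Pdia3 (-0.35, adjusted p = 0.0544), the Sec61b probes (-0.42 and -0.32, adjusted p = 0.0517 and 0.0828), P4hb (-0.25, adjusted p = 0.062) and Fkbp2 (-0.31, adjusted p = 0.0802) had every HCA array below every untreated one and did not pass. Hspa5 (0.27 ± 0.18, SE, adjusted p = 0.532), Hsp90b1 (-0.16, adjusted p = 0.535), Xbp1 (-0.20, adjusted p = 0.259) and Sel1l (-0.02, adjusted p = 0.95) did not pass, and their arrays overlapped. With median centring neither Herpud1 (0.70 ± 0.22, SE, adjusted p = 0.537) nor Creld2 (-0.35 ± 0.23, SE, adjusted p = 1) was called, and the counts of this comparison ranged from 0 to 7 over the settings tried. Atf4 itself was higher in HCA-treated WT neurons (0.61 ± 0.11, SE, adjusted p = 0.0147).

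In KO neurons no member probe was called between HCA-treated and untreated arrays in limma, where 0.019% of all probes were. At an unadjusted p under 0.05, which 504 of all 10547 probes met in either direction, 4 member probes lay lower. The median was -0.12 (0.00 for all probes) and 21 of 24 lay below 0, the same count as in WT neurons. Herpud1 differed by -0.01 ± 0.11 (SE, adjusted p = 1) over 7.36 to 7.73 with HCA and 7.28 to 7.71 without. Xbp1 had the smallest unadjusted p of the members, 0.00523, at -0.26 (adjusted p = 0.707). The difference of the HCA responses, KO minus WT, tests whether the genotypes responded unequally. No member probe was called, against 0.247% of all probes. At an unadjusted p under 0.05, which 768 of all 10547 probes met in either direction, 2 member probes were lower and 2 higher. Herpud1 came nearest at -0.66 ± 0.16 (SE, 95% interval -0.998 to -0.319, adjusted p = 0.186). It was called without WT HCA replicate 1 (-0.77, adjusted p = 0.0386). Hyou1 (0.63, adjusted p = 0.604), Dnajb9 (0.59, adjusted p = 0.648) and Hspa5 (-0.55, adjusted p = 0.682) did not pass.

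**Figure D3:**
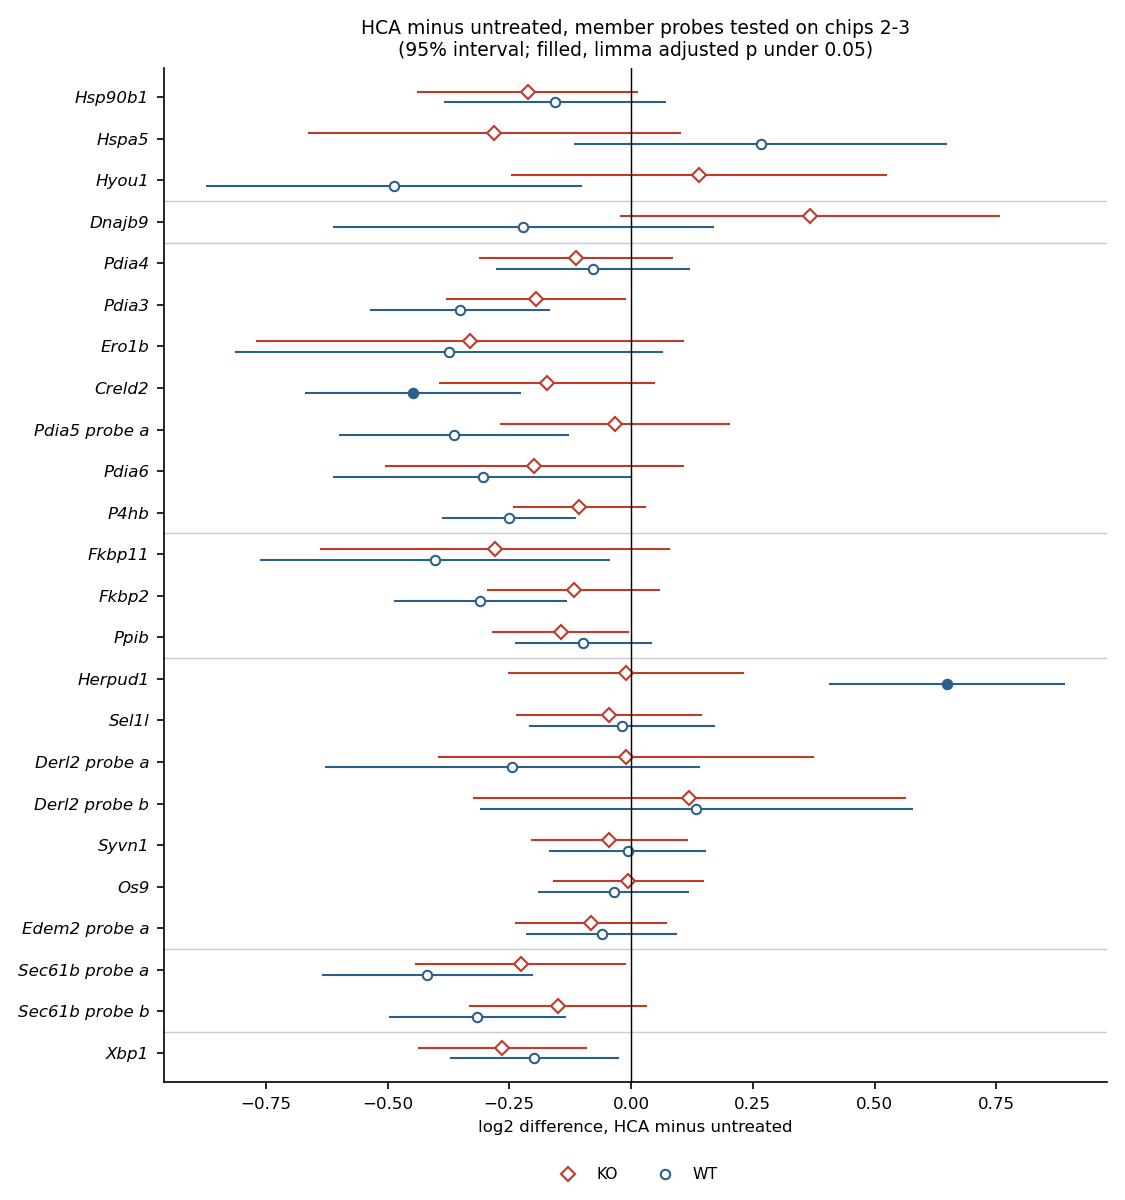
HCA minus untreated difference in log2 intensity (x axis) with its 95% interval for the 24 member probes on chips 2 and 3, in KO neurons (red diamonds) and WT neurons (blue circles), filled where the limma adjusted p was under 0.05. Filled marks are the WT ones of Herpud1 (0.65) and Creld2 (-0.45), which were 0.70 and -0.35 and not called with median centring.

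On chip 1, the same untreated comparison gave no call among the members. None of 26 member probes passed in limma, where 0.306% of all 11124 probes tested did. The median was -0.02 (0.01 for all probes). At an unadjusted p under 0.05, which 846 of all 11124 probes met in either direction, 1 member probe was lower and 1 higher. Hsp90b1 had 10.55, 10.58, 10.50 and 10.70 in KO neurons, against 10.60, 10.48, 10.61 and 10.65 in WT neurons. Its difference was 0.00 ± 0.08 (SE, n = 4 each) with a 95% interval of -0.17 to 0.17, which does not reach the -1.03 of chips 2 and 3. Pdia3 had 11.62, 11.51, 11.40 and 11.50 in KO neurons, against 11.69, 11.08, 11.75 and 11.43 in WT neurons (0.02, interval -0.30 to 0.34). Xbp1 had 11.89, 11.89, 11.67 and 11.83 in KO neurons, against 11.91, 12.01, 11.84 and 11.85 in WT neurons (-0.08, interval -0.26 to 0.10). The genotypes overlapped in all 3.

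Pdia4 (9.51, 9.60, 9.40 and 9.30 in KO neurons, against 9.55, 9.12, 9.79 and 9.46 in WT neurons), Creld2 (9.28, 9.32, 9.27 and 9.19, against 9.24, 9.19, 9.37 and 9.25) and Sel1l (8.45, 8.30, 8.27 and 8.43, against 8.45, 8.35, 8.45 and 8.32) overlapped as well, at -0.03, 0.00 and -0.03. The Sec61b probes had 10.31, 10.46, 10.15 and 10.10, and 9.64, 9.89, 9.63 and 9.54 in KO neurons, against 10.34, 10.66, 10.37 and 10.35, and 9.86, 9.98, 9.86 and 9.78 in WT neurons. They differed by -0.17 (adjusted p = 0.768) and -0.20 (adjusted p = 0.674). Ppib had 11.05, 11.23, 11.17 and 11.03 in KO neurons, against 11.21, 11.21, 11.21 and 11.37 in WT neurons (-0.13, adjusted p = 0.762).

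Herpud1 and Hspa5 were the exceptions to overlap among the members given array by array. Herpud1 had 8.22, 8.12, 7.95 and 7.91 in KO neurons on chip 1, against 8.86, 8.27, 8.92 and 8.62 in WT neurons. All KO arrays lay below all WT arrays, as did 2.45% of all probes, and the difference of -0.62 ± 0.14 (SE, unadjusted p = 0.00168) did not pass after limma's adjustment (adjusted p = 0.222). It passed without untreated WT replicate 2 (-0.75, adjusted p = 0.0377). Hspa5 ran the other way, with 5.82, 5.90, 5.86 and 6.06 in KO neurons, against 5.74, 5.38, 5.77 and 5.65 in WT neurons. All KO arrays lay above all WT arrays, as did 2.95% of all probes, at 0.27 ± 0.10 (SE, adjusted p = 0.569), and 2 of the WT arrays did not detect the probe.

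The genotype differences of chip 1 and of chips 2 and 3 were set against each other in 1 fit over the 16 untreated arrays. Of 26 member probes, 12 (of 11 genes) differed, all with a higher value on chip 1, where 2.84% of all 11657 probes tested were called in that direction. The median difference between the chip sets was 0.52 (-0.02 for all probes). It was 1.03 ± 0.11 for Hsp90b1 (SE, limma adjusted p = 0.000369), 0.99 ± 0.19 for Hspa5 (SE, adjusted p = 0.00897), 0.89 ± 0.17 for Pdia3 (SE, adjusted p = 0.0107) and 0.77 ± 0.11 for Xbp1 (SE, adjusted p = 0.00222). By role, 5 of 8 disulfide probes, 2 of 3 major chaperones, both Sec61b probes, Xbp1, 1 of 3 prolyl isomerases and 1 of 8 degradation probes differed. Herpud1, at 0.19 ± 0.19 (SE, 95% interval -0.21 to 0.60, adjusted p = 0.664), and Ppib, at -0.01 (adjusted p = 0.986), did not pass. With the detection of Eif2s3y as a covariate 5 member probes were called, and with median centring none was, though 22 of the 26 values still lay above 0 with a median of 0.42. Without the chip term Hspa5 was still at 0.99 and no longer called (adjusted p = 0.116). What else differed between the chip sets is not given in the sources used here, and a difference between chips and one between their samples cannot be told apart.

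Each chip taken alone showed the same division. The 24 probes tested on chips 2 and 3 had a median KO minus WT difference in untreated neurons of -0.64 on chip 2 and -0.58 on chip 3, with all 24 below 0 on either, and of -0.02 on chip 1, with 15 below 0. In HCA-treated neurons the medians were -0.43 on chip 2 and -0.51 on chip 3, with 22 below 0 on either. Relative to the mean of its chip's untreated WT arrays, the median of the 24 probes lay between -0.74 and -0.70 on the 4 HCA-treated KO arrays and between -0.69 and -0.48 on the 4 untreated KO arrays of chips 2 and 3. It lay between -0.23 and -0.15 on the HCA-treated WT arrays. On chip 1 the KO arrays lay between -0.08 and 0.04.

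**Figure D4:**
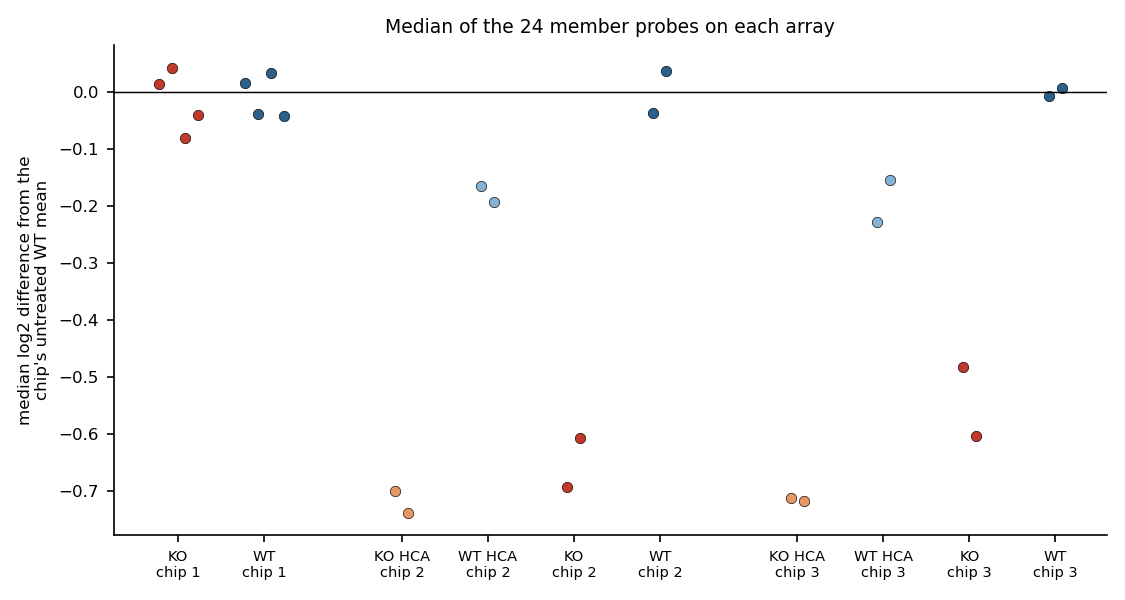
Median log2 difference of the 24 member probes tested on chips 2 and 3 from the mean of the same chip's untreated WT arrays (y axis), 1 point per array, by chip, genotype and treatment. All 8 KO arrays of chips 2 and 3 lie at or below -0.48, and the 4 KO arrays of chip 1 lie between -0.08 and 0.04. The values are quantile-normalised, a scaling on which the size of the shift depends.

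Other genes of the ER were followed as well. Of 93 probes of 75 other ER genes on chips 2 and 3, 14 fell and 3 rose in untreated KO neurons, where 10.7% of all probes were called lower and 10.2% higher, with a median of -0.03. Folding enzymes fell in 4 of 19 probes, among them the prolyl isomerases Fkbp9 (-1.03) and Fkbp14 (-0.64), and retrieval and exit genes in 3 of 17, among them the KDEL receptors Kdelr2 (-0.47) and Kdelr3 (-0.80). Degradation genes outside the members fell in 4 of 23 probes and rose in 2, with Vcp, the ATPase that draws proteins out of the ER, and Selenok both at -0.35. Glycan transfer and trimming genes fell in 3 of 12, with Dad1 at -0.47, and rose in 1, the mannosidase Man1b1 at 0.33. None of 15 translocon and signal peptidase probes and none of 7 probes of membrane-bound regulators was called. In HCA-treated neurons 12 of the 93 fell and 3 rose in KO neurons, where 11% of all probes were called lower and 1156 of 10547 higher. On chip 1 none of 103 was called, where 0.306% of all probes were, and between the chip sets 3 of 106 were higher on chip 1, near the 2.84% of all probes.

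Marker genes for cells other than neurons were also lower in KO neurons on chips 2 and 3. Of 38 marker probes on chips 2 and 3, 9 were neuronal. In untreated KO neurons 24 of the 38 fell and 2 rose, and in HCA-treated ones 23 fell and 2 rose. Over all probes, 10.7% were called lower and 10.2% higher in untreated KO neurons, and 11% lower and 1156 of 10547 higher with HCA. Neither the marker counts nor those of the other ER genes were repeated with median centring, under which fewer member probes were called. In untreated neurons the falls were 6 of 6 probes of dividing cells, 4 of 4 of astrocytes, 4 of 5 of neural progenitors, 4 of 5 of meninges and fibroblasts, 3 of 4 of the oligodendrocyte lineage, 2 of 4 of microglia and the 1 of endothelium. Of 9 neuronal probes none fell and 2 rose, Neurod2 and Nefm. With HCA, 1 of these 9 fell and 2 rose in KO neurons. The summed level of the meningeal markers was 8.30 to 8.65 on untreated KO arrays, against 9.43 to 9.59 on untreated WT arrays of chips 2 and 3, and that of the markers of dividing cells 10.18 to 10.38, against 11.41 to 11.66. On chip 1 these sums were 9.58 to 10.32 in KO neurons, against 9.59 to 9.81 in WT neurons, and 10.92 to 11.37, against 11.13 to 11.58. Those of microglia were 7.16 to 8.64 in KO neurons, against 8.49 to 9.02 in WT neurons on chip 1, and 7.08 to 7.74, against 7.87 to 8.27, on chips 2 and 3. Those of astrocytes were 10.79 to 11.69 in KO neurons, against 11.37 to 11.86 in WT neurons on chip 1, and 10.98 to 11.18, against 11.80 to 11.89, on chips 2 and 3. On chip 1 none of 40 marker probes was called, with median differences of -0.52 for microglia and -0.40 for astrocytes, and 12 of 40 were higher there than on chips 2 and 3 in the test between the chip sets, against 2.84% of all probes. None of these 12 were microglial or astrocytic. In WT neurons 4 of 38 marker probes fell with HCA, against 0.882% of all probes, among them Hes5 of progenitors and Cdc20 of dividing cells. The neuronal sum was 14.44 to 14.55 on untreated KO arrays, against 14.33 to 14.47 on untreated WT arrays of chips 2 and 3. The defining markers Gfap, Aldoc, S100b, Pax6, Fabp7, Olig2, Col1a2, Col3a1, Lum, Pecam1, Kdr and Cdh5 were detected on 0 arrays, and Rbfox3, Vim, Csf1r, Cd68, Cldn5 and Ccnb1 had no named probe. The part of these cell types in the ER result was not tested, and in these bulk samples fewer cells of a type and less RNA per cell cannot be told apart.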

How the data were processed

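All 24 Illumina Mouse Ref-8 arrays were analysed. The average signal per probe is an intensity that BeadStudio 1.5.1.3 made, per the file headers, and the same table, as deposited, gives a detection score for each. The authors' deposited log2 matrix holds the quantile-normalised log2 of the same signals with no background correction, as recomputing it showed. The submitters' processing notes name limma, version not given. That matrix served to name probes and as an alternative.

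Here the background mean and SD of each array were read from its detection scores, signals were corrected by normexp (offset 16), quantile-normalised over 24 arrays and put on the log2 scale. Probes detected on at least 4 arrays of a fit (1 minus the score under 0.05) were tested with limma 3.58.1 in R 4.3.3 (lmFit, eBayes, Benjamini-Hochberg over all probes tested, called under 0.05). One fit took the 16 arrays of chips 2 and 3 with chip as a term, another the 8 of chip 1, and the last the 16 untreated arrays with a genotype by chip set interaction. Intervals are at 95%. The script was tested on simulated data. Each probe was tested alone, and the probes of 1 gene are given apart.

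The members, gene lists and settings were chosen with earlier results of these data known. Given array by array are the 4 called member genes with the smallest p of each comparison, and Hspa5, Hsp90b1, Xbp1, Atf6, Ern1, Herpud1, Sel1l, Dnajc3, Ppib and Canx (ranges for those not tested). Other ER genes are named by p, up to 2 per role. For Atf4, not detected in KO neurons, the fold is a bound: per array, the higher of the lowest detected signal and its own value stands in for it. A block for array position and the detection of Eif2s3y as a covariate were alternatives chosen after seeing the data.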

Additional observations from a re-analysis of the deposited data

Results flagged for a closer look

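Among the members, 12 probes differed between chip 1 and chips 2 and 3 in the untreated KO minus WT difference (chip 1 minus chips 2 and 3, log2 scale, in the interaction test): Hsp90b1 by 1.03, Hspa5 by 0.99, Fkbp11 by 0.91, Pdia3 by 0.89, Pdia4 by 0.86, Xbp1 by 0.77, the Sec61b probes by 0.74 and 0.64, Pdia5 (its first probe) by 0.67, Creld2 by 0.65, Sel1l by 0.49 and P4hb by 0.41.

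In 66 groups of 4 arrays, 6 held 1 array far from the other 3, where chance gives about 5% of groups. On chips 2 and 3 these were KO HCA replicate 4 for Hsp90b1 (9.66), WT HCA replicate 1 for the first Sec61b probe (9.38), untreated WT replicate 6 for Hsp90b1 (11.37) and untreated WT replicate 8 for Herpud1 (8.24). On chip 1 they were untreated WT replicate 2 for the first Sec61b probe (10.66) and untreated WT replicate 4 for Ppib (11.37).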

How the results depend on the processing

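The counts are of member probes called in limma, main value first. In untreated neurons of chips 2 and 3 (17 lower), median centring left 1, all 24 arrays in 1 fit 11, chip 2 alone 7 and chip 3 alone 8. With HCA (15 lower), median centring left 8, chip 2 alone 6 and chip 3 alone 8. For HCA against untreated WT neurons (2), background correction by neqc gave 7, none 5, probes detected on all arrays 7, the brightest probe per gene 5, array weights 6 and a trend in eBayes 6. Probes detected on at least 1 array, all 24 arrays and no chip term each gave 1, and median centring, chip 2 alone and chip 3 alone 0. The difference of the HCA responses (0) had 1 with neqc, all 24 arrays or array weights. Chip 1 (0) had 1 with array weights, and the value pooled over 3 chips, which stands in for it in the fit of all 24 arrays, had 11. There Creld2 (-0.32) and Pdia3 (-0.42) differed in sign from their chip 1 values, which lay near 0 (0.0046 and 0.021). The difference between the chip sets (12) had 0 with median centring, 3 with chip 2 and 2 with chip 3 in place of both, and 5 with Eif2s3y as a covariate. With 1 array left out at a time, the counts ranged from 15 to 18 (untreated, chips 2 and 3), 12 to 15 (HCA), 1 to 4 (HCA in WT, 4 without WT HCA replicate 2), 0 to 0 (HCA in KO), 0 to 1 (difference of responses), 0 to 1 (chip 1) and 11 to 13 (between chip sets, where Sel1l was lost without untreated WT replicate 4, 5 or 6 or KO replicate 5). With the replicate block, the counts were 17 untreated and 14 with HCA on chips 2 and 3, 0 for the difference of responses, 0 on chip 1 and 8 between chip sets. HCA and untreated arrays of chips 2 and 3 share no replicate numbers, so their comparison had no such fit. Samples with the same number in KO and WT did not all deviate together, so the numbers were not taken to pair samples. Correlations of their deviations from the mean of their group on the same chip were -0.10 to 0.13 on chip 1. On chips 2 and 3 they were -0.09 and -0.23 untreated and 0.20 and 0.10 with HCA. With 2 arrays per group and chip there, both pairs of a chip share 1 value, which is a weak check. The block for array position, which set each HCA-treated array with 1 untreated array of its genotype on the same chip, gave 18, 15, 2, 0 and 0. Of 2285 values of the probes given array by array, 2103 kept direction and side of the threshold, 87 lost a call, 33 gained one and 62 changed sign, 2 of these (Creld2 and Pdia3, above) with a call. The others were called under neither setting. With all 24 arrays they were Hspa5 on chip 1 (-0.22), Hsp90b1 (0.10), Pdia4 (0.14) and Sel1l (0.11) for HCA in WT, and Creld2 (-0.047), Pdia3 (-0.29) and the Sec61b probes (-0.18 and -0.15) for the difference of responses. With median centring they were Ppib in untreated neurons (0.046), Sel1l for HCA in WT (0.049), and Pdia3 (-0.048) and the Sec61b probes (-0.037 and -0.066) for the difference of responses. With Eif2s3y as a covariate they were Hsp90b1 (0.019), Pdia4 (0.16) and Sel1l (0.026) on chip 1 and Ppib between chip sets (0.0027). With array weights they were Pdia3 on chip 1 (-0.059), Ppib between chip sets (0.027), and Hsp90b1 (0.0034) and Sel1l (0.016) for the difference of responses. On chip 2 alone they were Sel1l for HCA in KO (0.086), and Sel1l (0.12) and Ppib (0.0068) for the difference of responses, and on chip 3 alone Hsp90b1 for the last (0.11). With 1 array left out, values on both sides of 0 were seen for Herpud1 (-0.062 to 0.014) and Sel1l (-0.10 to 0.029) for HCA in KO, Sel1l for HCA in WT (-0.043 to 0.016), Ppib between chip sets (-0.044 to 0.032), Creld2 (-0.019 to 0.042), Hsp90b1 (-0.040 to 0.025), Pdia3 (-0.12 to 0.11) and Pdia4 (-0.15 to 0.077) on chip 1, and Hsp90b1 (-0.13 to 0.049), Pdia4 (-0.11 to 0.037) and Sel1l (-0.086 to 0.048) for the difference of responses.

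Over all probes, median centring changed the calls in untreated neurons to 248 lower and 127 higher (33.9% higher, against 48.9%), with HCA to 426 and 33 (7.19%, against 50%), for HCA in WT to 3 and 21 (87.5%, against 49.7%), and between chip sets to 5 and 7 (58.3%, against 71.5%). It moved the median of all probes to -0.18 in the difference of responses and to -0.12 in HCA against untreated KO neurons and between the chip sets. The cause of these changes was not tested. Single-chip fits leave 2 arrays per group, and low signal limits Hspa5, Ero1b, Fkbp11, Dnajb9 and the second probe of Derl2, which part of the arrays did not detect.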

Other observations

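The Y-linked transcript Eif2s3y had the same pattern over the WT arrays of both treatments on chips 2 and 3. It read 9.99, 4.85, 5.08 and 8.72 on WT HCA replicates 1 to 4, and 9.01, 4.98, 4.88 and 8.55 on untreated WT replicates 5 to 8, where the values under 6 were not detected. The Y-linked Kdm5d, at 7.89, 4.72, 4.89 and 7.22 with HCA, and 7.34, 4.65, 4.73 and 6.66 without, was low on the same 4 arrays. The labels do not say whether HCA-treated and untreated arrays share embryos, and the main comparison of HCA with untreated neurons took them as separate samples. For Hsp90b1, the untreated KO arrays of these chips, all with Eif2s3y detected, had 9.95 to 10.30, and the untreated WT arrays had 11.10 to 11.11 where it was detected and 11.09 to 11.37 where it was not.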
